A study of Oryza sativa with 16 samples.

Results

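The genes described here are 18 of the 34302 rows of a table of transcript levels in rice (Oryza sativa) shoot apical meristems. They were low at the first stages sampled, present at stage 4 in both genotypes and still present at stage 7. They were chosen by their own values in that table, which are FPKM (fragment counts scaled for transcript length and library size). A row was taken when each genotype was under 1 FPKM at stages 1 and 2, when it had at least 3 FPKM at stage 4 in both, and when each genotype kept a stage 7 value over 0.5 times its stage 4 value. Their course over the stages is therefore a description and carries no test. A further row with such values was left out by the rule and is not analysed here.

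Dissected meristems came from greenhouse plants of 3 months, grown for 100 days in individual pots, either wild type (WT) or d1, a mutant with the d1-1 allele of RGA1. Sampling covered panicle initiation at the labelled stages 1, 2, 4 and 7, and the labels name no transgene or treatment. The labels do not say what marks each stage or how many plants a library pools. There were 16 libraries, 2 for each of the 8 groups, but the table holds 1 value per group, so each number below is the authors' combined value with no SD or n. The depth behind it is unknown, although the labels give about 40 M reads of 150 bases per library.

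The shoot apical meristem is the growing tip of the plant. At panicle initiation it stops making leaves and makes branches, which later bear spikelets and florets, and later stages hold tissues that earlier ones lack. RGA1 encodes the alpha subunit of the heterotrimeric G protein, a membrane switch that passes signals from receptors, and its d1 mutants are dwarf plants with compact panicles. In bulk tissue, more cells of a type that use a gene and more RNA per cell cannot be told apart. The deposited table gives identifiers without gene names, and 0 of the 18 identifiers were in the gene table used for names, so the genes are given by identifier with no role.

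Facts of the whole table bear on these genes in a few ways. The summed FPKM of a column lay between 621238 and 670519. OS05G0333200, the identifier that general knowledge, and no table used here, assigns to RGA1, was at 27.5 to 30.2 FPKM in WT and at 20.9 to 24.1 FPKM in d1. Of 4 identifiers written down for KNOX genes, a family of homeobox regulators that marks meristems, 3 were in the table, and their summed level was 436 to 838 FPKM over the 8 columns. Of 11 identifiers written down for photosynthesis genes, which mark leaf tissue, 6 were in the table, and their summed level was 11.5 to 92.2 FPKM. No table used here pairs those identifiers with names either.

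Few rows had this course. Of the 34302 rows, 14771 were under 1 FPKM in all 4 columns of stages 1 and 2, and only 25 of these reached 3 FPKM in both genotypes at stage 4, beside the row left out. Of the 25, 18 kept their level by the rule and 7 did not. Of those 7, 3 missed in both genotypes, 3 in WT alone and 1 in d1 alone. Read in the WT columns alone, the criteria were met by 72 rows, and in the d1 columns alone by 63. The 54 rows that met them in WT and not in d1 were mostly rows with at least 1 FPKM in d1 at stage 1 or 2, which held for 45 of them. Of the 45 rows that met them in d1 and not in WT, 23 had at least 1 FPKM in WT early and 25 were under 3 FPKM in WT at stage 4. These values set the size of the group: most rows that came on in 1 genotype were also detected in the other at stage 4, at 1 FPKM or more in 47 of the 54 and 42 of the 45. Over the whole table, 54.6% of rows in d1 and 54.3% in WT had that level at stage 4. Rows that missed through an early value of at least 1 FPKM were already detected in that genotype, so the counts partly follow from the selection.

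The thresholds passed through a continuous range of values. Just inside the early limit were OS08G0302000, with a highest early value of 0.999 FPKM, and OS06G0107600, with 0.993 FPKM. Just outside it were OS04G0581600 with 1.01 FPKM and OS11G0156800 with 1.03 FPKM, both in WT at stage 2. At the limit of 3 FPKM at stage 4, OS01G0860800 and OS08G0540000 were inside with 3.10 and 3.12 FPKM in WT. OS02G0103200 and OS10G0195000 were outside with 2.95 and 2.73 FPKM in WT. For the level kept, OS04G0313500 was inside with a stage 7 to stage 4 ratio of 0.5015 in WT, and OS05G0554400 with 0.5702 in WT. OS07G0621800 was outside with a ratio of 0.4997 in d1 and OS01G0702300 with 0.4868 in WT, although the last had 35.4 and 24.4 FPKM in d1 at stages 4 and 7.

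Before stage 4 the 18 genes were near the bottom of the table's range. Their median level at stages 1 and 2 was 0.273 and 0.466 FPKM in WT, against 0.368 and 0.467 FPKM in d1. In WT, 4 genes were listed at 0 at stage 1 and 1 at stage 2, and in d1 1 gene was listed at 0 at each of these stages. OS04G0313500 was the gene listed at 0 in all 4 early columns. From stage 1 to stage 2 the listed value was higher in 15 of the 18 genes in WT and in 11 in d1, and 10 showed this in both. Over all 14771 rows under 1 FPKM at these stages, 13.7% showed it in both, a share that counts 4802 rows at 0 in every column. The rule holds all these values under 1 FPKM, so no early rise is read from the counts. At stage 4 the median stood at 4.25 FPKM in WT, against 5.47 FPKM in d1, with highest values of 19.4 and 57.9 FPKM. At stage 7 it was 4.56 and 6.33 FPKM, with highest values of 138 and 207 FPKM. The medians of stages 4 and 7 lay close together while the highest values were far apart, so a few genes stood far higher at stage 7 and many stood near their stage 4 level.

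**Figure D1:**
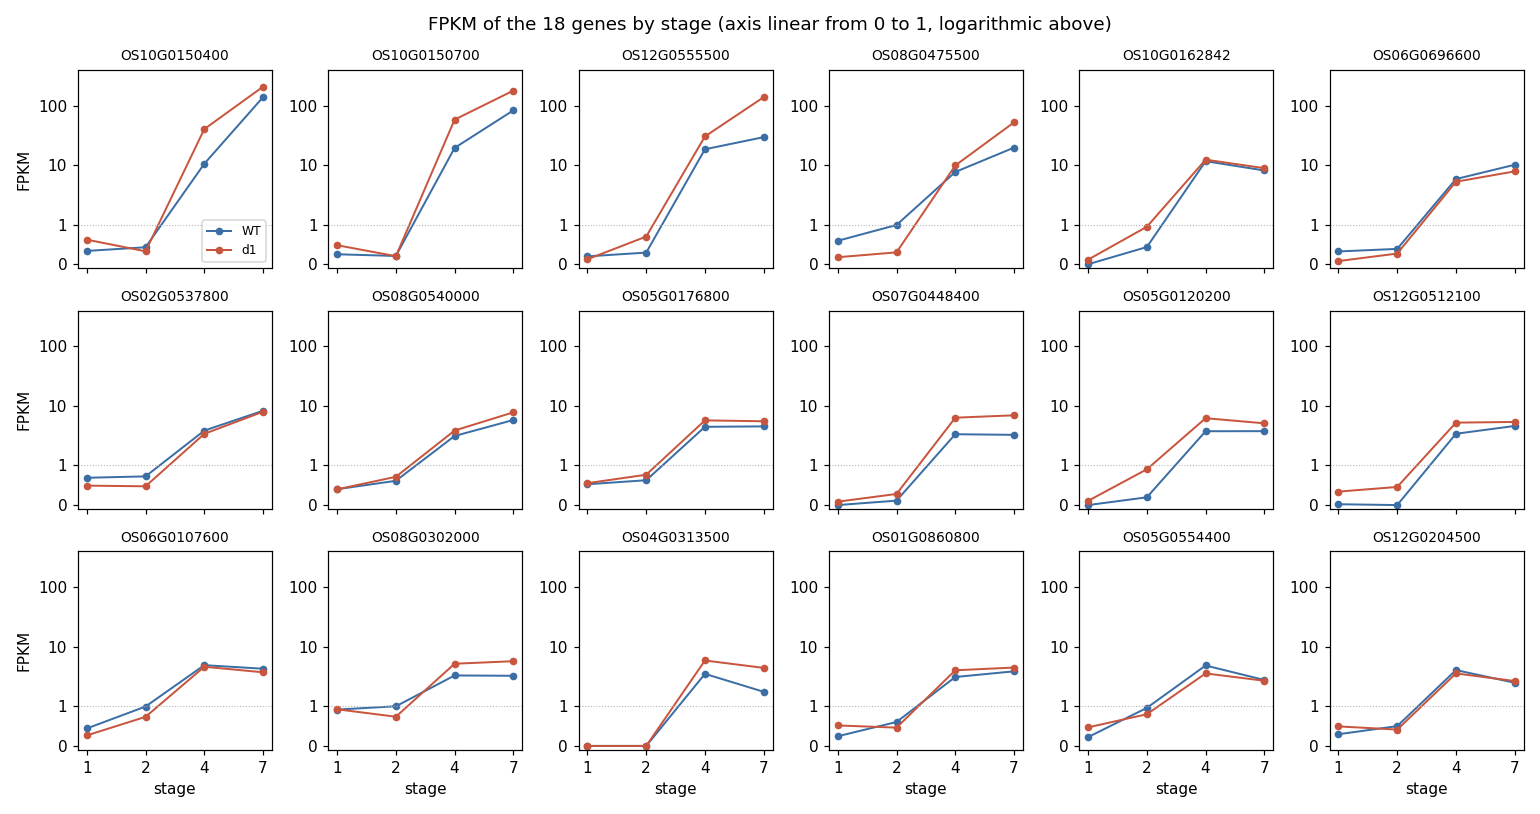
Levels of the 18 genes at stages 1, 2, 4 and 7, one panel per gene in order of their mean level at stages 4 and 7. Vertical axes give FPKM (linear from 0 to 1, logarithmic above, dotted line at 1 FPKM), blue points are WT and red points d1, and each point is the authors' combined value of 2 libraries. All genes lie under 1 FPKM at stages 1 and 2, and the first 4 panels reach 19.6 FPKM or more at stage 7 in both genotypes.

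The 4 genes with the highest mean level over stages 4 and 7 were set against the other 14. Stage 7 weighs most in that mean, so the choice itself partly fixes a larger share at stage 7. They made up 47.0% of the summed FPKM of the 18 genes in WT at stage 4 and 80.2% at stage 7, and 64.8% and 87.9% in d1. The sum over the other 14 genes differed little between these stages, at 63.0 and 66.8 FPKM in WT, against 75.1 and 79.0 FPKM in d1. At both stages each of these sums was the higher in d1.

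OS10G0150400 had 0.335, 0.427, 10.5 and 138 FPKM in WT at the 4 stages in turn, and 0.619, 0.325, 40.1 and 207 FPKM in d1. It was the most abundant of the 18 at stage 7, and its stage 7 value was 13.1 times its stage 4 value in WT and 5.16 times in d1. OS10G0150700 had 0.251, 0.208, 19.4 and 82.9 FPKM in WT, against 0.479, 0.202, 57.9 and 178 FPKM in d1. It was the most abundant of the 18 at stage 4 in both genotypes. In both genes the early values of WT and d1 overlapped, and at stages 4 and 7 d1 was the higher.

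OS12G0555500 had 0.198, 0.293, 18.4 and 29.4 FPKM in WT, against 0.125, 0.697, 30.2 and 138 FPKM in d1. Its stage 7 value was 1.60 times its stage 4 value in WT and 4.57 times in d1. OS08G0475500 had 0.591, 0.989, 7.64 and 19.6 FPKM in WT, against 0.176, 0.299, 9.83 and 52.1 FPKM in d1. Here d1 was the lower genotype at stages 1 and 2 and the higher at stages 4 and 7. Its stage 7 to stage 4 ratio was 2.57 in WT and 5.30 in d1.

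Another 5 genes were higher at stage 7 than at stage 4 in both genotypes, by smaller amounts. OS02G0537800 had 0.688, 0.723, 3.84 and 8.28 FPKM in WT, against 0.490, 0.473, 3.39 and 7.97 FPKM in d1, with WT the higher at every stage. OS06G0696600 had 0.322, 0.386, 5.81 and 10.1 FPKM in WT, against 0.0794, 0.269, 5.24 and 7.82 FPKM in d1, again with WT the higher throughout. OS08G0540000 had 0.400, 0.612, 3.12 and 5.79 FPKM in WT, against 0.397, 0.713, 3.85 and 7.79 FPKM in d1. In these 3 genes stage 7 stood at 1.49 to 2.35 times stage 4. OS01G0860800 had 0.244, 0.603, 3.10 and 3.86 FPKM in WT, against 0.516, 0.461, 4.02 and 4.47 FPKM in d1. OS12G0512100 had 0.0212, 5.06e-07, 3.40 and 4.60 FPKM in WT, against 0.339, 0.457, 5.23 and 5.37 FPKM in d1. These last 2 genes stood at 1.03 to 1.35 times their stage 4 level.

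In 4 genes the level at stage 7 was on different sides of stage 4 in WT and d1, and the changes were small. OS05G0176800 had 0.525, 0.626, 4.45 and 4.52 FPKM in WT, against 0.552, 0.765, 5.71 and 5.51 FPKM in d1. OS05G0120200 was listed at 0 at stage 1 in WT, followed by 0.196, 3.75 and 3.76 FPKM, and had 0.107, 0.902, 6.21 and 5.09 FPKM in d1. Across this set the stage 7 to stage 4 ratio was 0.820 to 1.10. OS07G0448400 was listed at 0 at stage 1 in WT, followed by 0.112, 3.34 and 3.26 FPKM, and had 0.0860, 0.280, 6.33 and 6.94 FPKM in d1. OS08G0302000 had 0.916, 0.999, 3.29 and 3.25 FPKM in WT, against 0.923, 0.736, 5.18 and 5.71 FPKM in d1. In both of these, the d1 values of stages 4 and 7 lay above both WT values.

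The remaining 5 genes were lower at stage 7 than at stage 4 in both genotypes, within the loss that the rule allows. OS10G0162842 had the highest level among them, listed at 0 at stage 1 in WT, followed by 0.433, 11.6 and 8.09 FPKM, and 0.116, 0.944, 12.3 and 8.85 FPKM in d1. OS04G0313500 was listed at 0 at stages 1 and 2 in both genotypes and had 3.50 and 1.75 FPKM in WT, against 5.87 and 4.41 FPKM in d1 at stages 4 and 7. No other of the 18 genes was listed at 0 in every early column. OS05G0554400 had 0.223, 0.959, 4.84 and 2.76 FPKM in WT, against 0.468, 0.799, 3.56 and 2.68 FPKM in d1. OS06G0107600 had 0.440, 0.993, 4.90 and 4.27 FPKM in WT, against 0.265, 0.733, 4.61 and 3.72 FPKM in d1. In both of these genes the highest early value was in WT at stage 2, just under the limit. OS12G0204500 had 0.295, 0.499, 4.05 and 2.48 FPKM in WT, against 0.492, 0.412, 3.56 and 2.65 FPKM in d1.

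Differences are given from here on as log2(FPKM + 1), a scale that understates the change of low genes. The median difference between stage 7 and stage 4 was 0.13 in WT (range -0.71 to 3.59) and 0.12 in d1 (range -0.43 to 2.34). A value of at least 1 was reached by 3 of the 18 genes in WT, where 2.3% of all 19171 genes with at least 1 FPKM in 2 of the 4 late columns did so, and by 5 in d1, where 2.03% did. In the other direction, 0 of the 18 reached 1 in either genotype, beside 1.02% of all genes in WT and 1.45% in d1. The rule used these columns, so nothing is read from the shares. The 2 genotypes share no column, and across the 18 genes their changes had a Pearson's r of 0.84 and a Spearman's rho of 0.92, against a Pearson's r of 0.66 over all 19171 genes. The coefficients describe genes that share libraries within a genotype and that were chosen by these values.

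**Figure D2:**
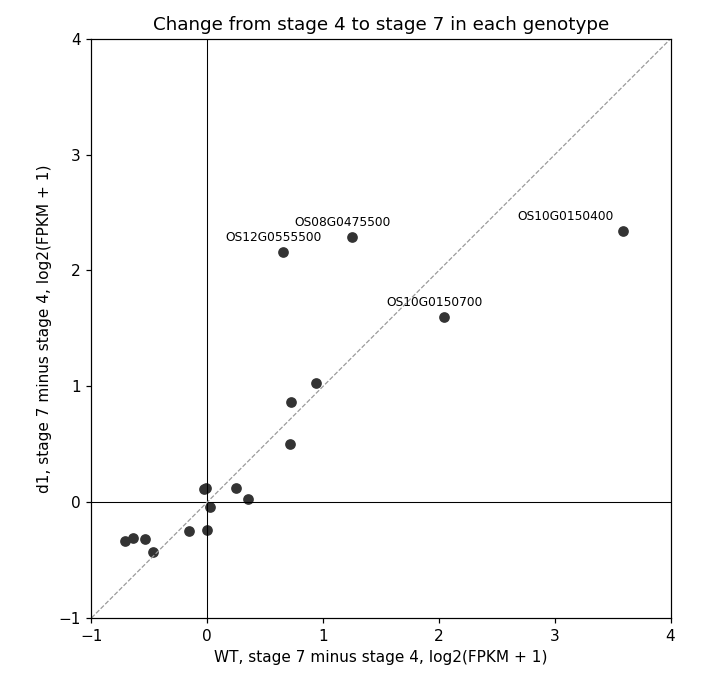
Change from stage 4 to stage 7 on the log2(FPKM + 1) scale in WT (horizontal axis) and in d1 (vertical axis), 1 point per gene; the dashed line marks equal change. Most of the 18 points lie near the line, OS12G0555500 (0.65 in WT, 2.16 in d1) and OS08G0475500 (1.25 and 2.29) lie above it, and OS10G0150400 (3.59 and 2.34) lies below it.

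The rule did not compare d1 with WT and treats both genotypes alike, but it used the same columns of stages 4 and 7. Its limits leave out rows that are low in 1 genotype. Of the rows that met the criteria in 1 genotype alone, 25 were under 3 FPKM at stage 4 in WT and 16 in d1. The selection thus bounds the differences of the 18 genes, here and in the fits below. The 19171 genes set beside them met no such limits. At stage 4, 13 of the 18 genes (72.2%) were higher in d1, where 50.4% of the 19171 genes were. At stage 7, 14 (77.8%) were higher in d1, where 51.4% were. The same 13 genes were higher in d1 at both stages, as were 35.2% of all genes, and 4 were lower at both (22.2%, against 33.4%). The median of the 18 differences (d1 minus WT) was 0.31 at stage 4 and 0.30 at stage 7, against 0.00 and 0.01 over all 19171 genes. These shares carry no test, since genes that move together in a library are not separate observations.

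A difference of at least 1 at stage 4 was found for 2 of the 18 genes higher in d1 (0.652% of all genes) and for 0 lower (0.923%). OS10G0150400 stood at 10.5 FPKM in WT, against 40.1 FPKM in d1 at that stage, a ratio of 3.80. OS10G0150700 stood at 19.4 and 57.9 FPKM, a ratio of 2.98. These 2 are near neighbours on chromosome 10 whose values may not be independent, and without them the count was 0. At stage 7, 3 of the 18 were higher in d1 by at least 1 (0.563% of all genes) and 0 were lower (1.52%). With a pseudocount of 0.1 the count higher was 5, as OS04G0313500 and OS07G0448400 joined. OS12G0555500 had the largest of these differences, with 29.4 FPKM in WT, against 138 FPKM in d1, a ratio of 4.68. OS08G0475500 had a ratio of 2.66 and OS10G0150700 of 2.15. The gap between genotypes thus sat at different stages in different genes. In OS10G0150400 it was 1.83 at stage 4 and 0.58 at stage 7, and in OS12G0555500 it was 0.69 and 2.19. With 1 value per group, whether a difference varied between stages was not tested.

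**Figure D3:**
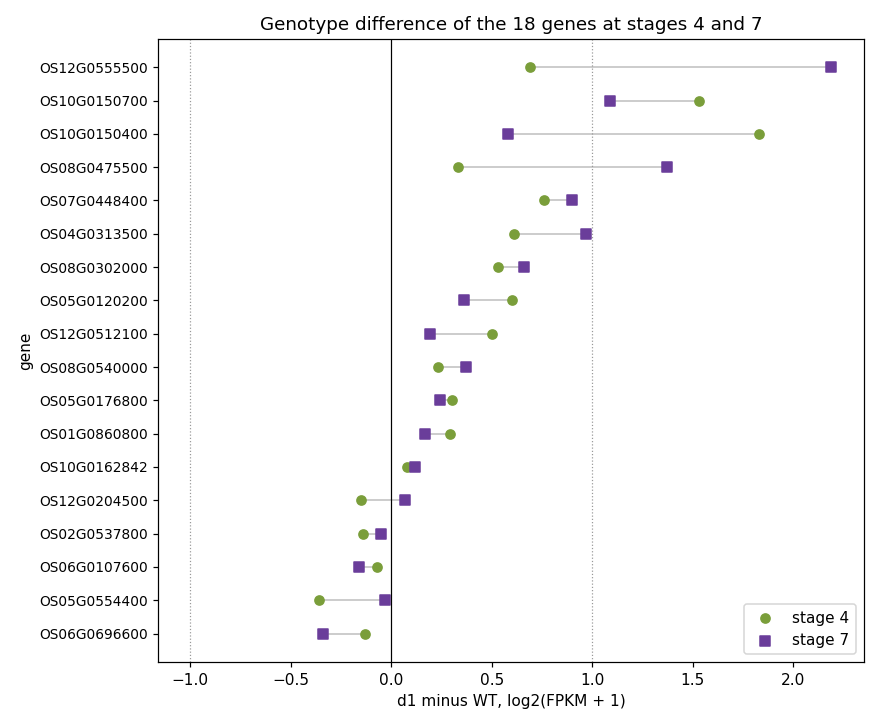
Difference between d1 and WT on the log2(FPKM + 1) scale for each of the 18 genes, with a circle for stage 4 and a square for stage 7, sorted by their mean; dotted lines mark differences of 1. Both symbols lie to the right of 0 in 13 genes and to the left in 4, and no gene is lower in d1 by more than 0.36.

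A limma fit of d1 against WT over the 4 columns of stages 4 and 7, blocked on stage and adjusted by Benjamini-Hochberg over all 19171 genes, called 1 of the 18 genes at an adjusted p under 0.05. It was OS10G0150700, higher in d1 by 1.31 ± 0.12 (moderated SE; adjusted p = 0.037). The fit called 0.469% of all genes higher and 0.506% lower in d1. The SE combines 2 sources. One is how far the gene's genotype difference varied between the 2 stages, with 1 residual degree of freedom. The other is the trend of that variation over all genes, which weighs more, with 3.68 prior degrees of freedom. The spread between plants or libraries of a group has no separate estimate in it. What remains of that spread in the combined values is mixed into both sources. This call did not hold with columns scaled to the same median (adjusted p = 0.051) or with no filter on low values (adjusted p = 0.23), and over all alternatives tried its adjusted p ran from 0.017 to 0.23.

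Several other genes lay close to that threshold in the same fit. OS07G0448400 was higher in d1 by 0.83 ± 0.11 (adjusted p = 0.053, limma), with 3.34 and 3.26 FPKM in WT against 6.33 and 6.94 FPKM in d1. OS04G0313500 differed by 0.79 ± 0.14 (adjusted p = 0.069, limma) and OS08G0302000 by 0.59 ± 0.11 (adjusted p = 0.075, limma). The genes with large but uneven gaps had wide errors: OS12G0555500 differed by 1.44 ± 0.35 and OS10G0150400 by 1.20 ± 0.30, each with an adjusted p of 0.11 (limma). OS08G0475500 differed by 0.85 ± 0.25 (adjusted p = 0.15, limma). An unadjusted p under 0.05 was found for 11 of the 18 genes, all higher in d1 (limma). Over all genes, 13.3% had such a value and were higher in d1, and 10.2% had one and were lower.

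The lowest differences between d1 and WT belonged to OS06G0696600 (-0.23 ± 0.10, adjusted p = 0.27, limma) and OS05G0554400 (-0.20 ± 0.13, adjusted p = 0.44, limma). The latter had 4.84 FPKM in WT, against 3.56 FPKM in d1 at stage 4 but 2.76 and 2.68 FPKM at stage 7. OS06G0107600 and OS02G0537800 differed by -0.11 ± 0.11 and -0.10 ± 0.10. None of these 4 differences passed the threshold, and a fit of so few columns can miss differences of this size.

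Over all 8 columns, with stage as a block, 0 of the 18 genes passed an adjusted p under 0.05 (limma, 19757 genes tested; 0.157% called higher and 0.086% lower in d1). An unadjusted p under 0.05 was found for 4 higher and 1 lower in d1 (13.6% and 10.1% of all genes). The smallest adjusted p was 0.10, for OS12G0512100 (0.41 ± 0.10, limma). The values of stages 1 and 2 are held under 1 FPKM by the rule, so 2 of the 4 stage pairs in this fit could differ only little for these genes.

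The listed photosynthesis identifiers had 1 value per group in the same columns, and 0 of 5 tested passed the limma threshold in either fit. Fits of so few columns can miss real differences, so this is not read as no difference. The 5 photosynthesis identifiers with at least 1 FPKM in 2 of the late columns were all higher in d1 at stage 4 (median difference 1.10), and 1 of 5 was higher at stage 7 (median difference -0.51). The summed level of the 6 in the table was 11.5 FPKM in WT, against 28.8 FPKM in d1 at stage 4, and 30.2 and 17.1 FPKM at stage 7, with none listed at 0. Of 16 identifiers written down for anther, tapetum and meiosis genes, meant to mark later reproductive cells, 13 were in the table. Their summed level was 185, 190, 147 and 138 FPKM in WT at the 4 stages in turn, against 173, 191, 152 and 140 FPKM in d1. The sum was thus lower at stages 4 and 7 than before, so it is not read as a measure of later cells. The median level of the list was only 0.69 to 2.3 FPKM over the 8 columns. The median differences of the 9 tested were 0.06 and -0.02 at stages 4 and 7. The part of either list in the differences of the 18 genes was not tested.

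Of 68 identifiers written down for panicle, floral, meristem, anther and leaf genes, 36 were in the table and 0 were among the 18 genes. The 68 include 5 for YABBY genes of organ polarity, of which 0 were found in the table, so these could not be analysed. Of 18 identifiers written down for floral MADS-box genes, which stand for regulators of floral organ identity, only 4 were in the table. Of these 4, 3 stayed below 1 FPKM up to stage 4 in WT and d1 and were at 3 FPKM or more at stage 7. Those 3 came on later than the 18 genes described here. Of 14 identifiers written down for spikelet and branch meristem regulators, 10 were in the table, and 0 of these 10 were under 1 FPKM at both early stages. At stage 4 their summed level was 1317 FPKM in WT, against 1192 FPKM in d1, while their median level was 28.7 and 35.0 FPKM. At that stage 6 of the 9 tested had the higher value in d1 (median difference 0.24). At stage 7 only 3 of the 9 did (median difference -0.14). For d1 against WT, 0 of the 30 tested identifiers of these lists passed in either direction at stages 4 and 7 (limma), where 0.469% of all genes were called higher and 0.506% lower. With 1 residual degree of freedom, a call in this fit depends on how even a difference is between the 2 stages, and not on size alone. It left 1.44 in OS12G0555500 uncalled (0.69 at stage 4, 2.19 at stage 7) and called 1.02 in OS10G0150300 (1.08 and 0.96). The lack of a call is therefore not read as a lack of difference.

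The position of the genes was not used in choosing them. The chromosome number in the identifiers places them on 9 of the 12 chromosomes, with 3 each on chromosomes 5, 8, 10 and 12, 2 on chromosome 6, and 1 each on chromosomes 1, 2, 4 and 7. A further member within 10 rows, in the order of identifiers, was found for 1 pair alone. These were OS10G0150400 and OS10G0150700 on chromosome 10, which are 2 rows apart and have the highest mean level of the 18 over stages 4 and 7.

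The rows beside this pair were examined after its values had been seen. OS10G0150600, between them, had 0.423, 0.118, 0.739 and 14.6 FPKM in WT, against 0.624, 0.0922, 2.27 and 31.0 FPKM in d1. It stayed outside the group because it was under 3 FPKM at stage 4. OS10G0150300, on the other side of OS10G0150400, had 0.310, 3.57, 105 and 80.0 FPKM in WT, against 3.94, 13.7, 225 and 157 FPKM in d1. It was over 1 FPKM in d1 at stage 1 already and had its highest value at stage 4. OS10G0150800, the next row after the pair, stayed between 0 and 0.258 FPKM in all 8 columns.

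The 4 rows from OS10G0150300 to OS10G0150700 thus reached 14.6 to 138 FPKM in WT, against 31.0 to 207 FPKM in d1 at stage 7, and each was higher in d1 at stages 4 and 7. In the fit of stages 4 and 7, OS10G0150300 was higher in d1 by 1.02 ± 0.06 (adjusted p = 0.020, limma) and OS10G0150600 by 0.97 ± 0.10 (adjusted p = 0.042, limma). With no filter on low values neither call held, each with an adjusted p of 0.23 (limma). The call of OS10G0150600 was also lost after median scaling and with a pseudocount of 0.1, at an adjusted p of 0.055 in each (limma). Over the alternatives tried, the adjusted p of OS10G0150300 ran from 0.0080 to 0.23 and that of OS10G0150600 from 0.025 to 0.23 (limma). The order of first appearance differed, with OS10G0150300 at stage 2 or before, the pair at stage 4 and OS10G0150600 at stage 7 in WT. Near-identical neighbouring genes can share reads, and the sources used here do not give how the authors' estimation divided them, so the 4 values may not be independent.

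**Figure D4:**
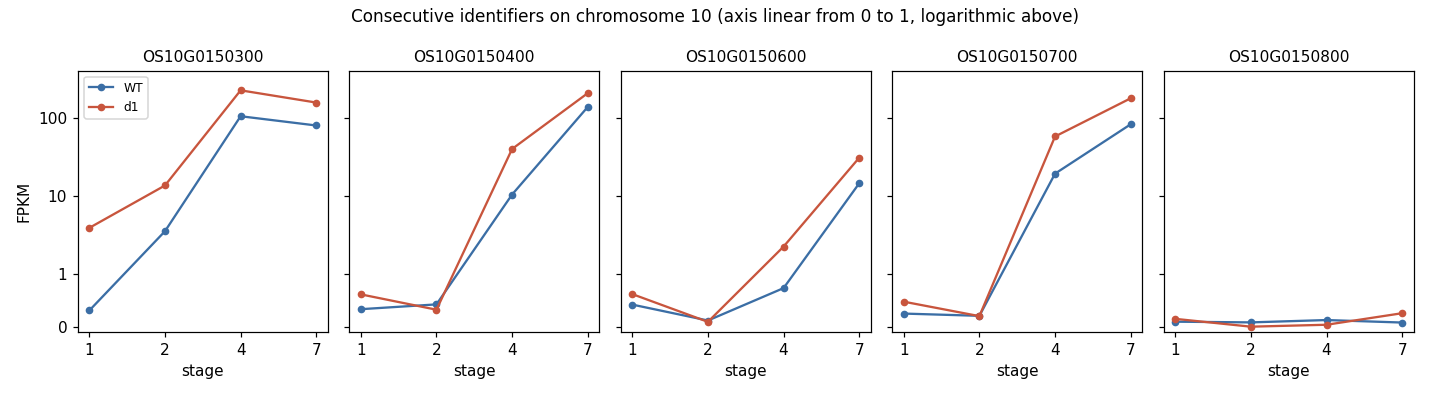
Levels of 5 rows with consecutive identifiers on chromosome 10 at stages 1, 2, 4 and 7 in FPKM (linear from 0 to 1, logarithmic above), blue for WT and red for d1, each point the authors' combined value of 2 libraries. The first 4 rows are higher in d1 than in WT at stages 4 and 7, and OS10G0150800 stays at or under 0.258 FPKM.

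Beside other members of the group, some neighbouring rows also came on at stage 4. The 18 genes have 35 distinct adjacent rows, and 4 of them (11.4%) were under 1 FPKM at stages 1 and 2 and at 1 FPKM or more at stage 4 in both genotypes. Over the whole table this held for 0.606% of rows. OS02G0537775, beside OS02G0537800, had 0.0848, 0.266, 1.92 and 4.55 FPKM in WT, against 0.220, 0.0910, 1.36 and 3.13 FPKM in d1. OS07G0448600, beside OS07G0448400, was listed at 0 at stages 1 and 2 and had 1.87 and 1.47 FPKM at stages 4 and 7 in WT, with 3.38 and 2.48 FPKM in d1. It shared with its neighbour a higher level in d1 at both stages, as OS02G0537775 shared a lower one with OS02G0537800. OS10G0162844 and OS12G0204550 were the other 2, with 2.34 and 2.51 FPKM in WT at stage 4. Their d1 values there were 2.12 and 2.83 FPKM. By stage 7, OS10G0162844 stood at 1.39 FPKM in WT, against 1.05 FPKM in d1. OS12G0204550 then stood at 2.34 FPKM in WT, against 2.06 FPKM in d1. At both stages each of these 2 differed between genotypes in the direction opposite to its member of the group. Whether such neighbours overlap their partner in the genome could not be seen without an annotation of the build IRGSP-1.0, and reads of overlapping or antisense genes cannot be told apart here. In all, 52.8% of the 36 adjacent places, and 52.8% of all rows, held a row with at least 1 FPKM at stage 4 in both genotypes.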

How the data were processed

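The deposited table holds FPKM values of the authors for 34302 rows in 8 columns. Each column carries the name of 1 genotype at 1 stage, so it combines both libraries of that group. The unit was inferred from the tools and the values. Tools named per the submitters' processing notes are Trimmomatic, FastQC, TopHat2, Cufflinks and Cuffdiff, and the build is IRGSP-1.0. The scaling between columns is not stated in the sources at hand. Without counts the depth is unknown and no counting interval can be made. Of all identifiers, 1 was in the NCBI gene table (assembly ASM3414082v1), and it is not a member.

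Values were analysed as log2(FPKM + 1). Genotypes were compared with limma 3.58.1 (R 4.3.3; eBayes with trend, stage as a block, Benjamini-Hochberg) on rows that reached 1 FPKM in 2 or more columns of the fit. The fit of 8 columns has 3 residual degrees of freedom and 2.54 prior ones, and the fit of stages 4 and 7 has 1 and 3.68. All 18 members passed the filter in both fits. All 18 are named, and neighbouring rows were chosen after their values were seen. The members, lists and tests were chosen with earlier results of these data known. Sequences were not used here.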

Additional observations from a re-analysis of the deposited data

Results flagged for a closer look

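Results were picked out here where both genotypes, or both stages, differed in opposite directions. Each rests on 1 combined value per group, and none of these differences was tested. From stage 4 to stage 7, OS05G0120200 differed by 0.00 in WT and -0.24 in d1 on the log2(FPKM + 1) scale, a difference of -0.25 before rounding. OS05G0176800 differed by 0.02 and -0.04, a difference of -0.06. OS07G0448400 differed by -0.03 in WT and 0.11 in d1, a difference of 0.14, and OS08G0302000 by -0.01 and 0.12, a difference of 0.13. The d1 minus WT difference of OS12G0204500 was -0.15 at stage 4 and 0.07 at stage 7, a change of 0.22.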

How the results depend on the processing

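No paired analysis was possible because each column combines the 2 libraries of a group, and leaving out replicates was not possible for the same reason. The rule found 14 rows with columns scaled to the same median, all of them among the 18 (OS04G0313500, OS06G0107600, OS08G0302000 and OS08G0475500 were lost), and 20 with the same upper quartile, which kept all 18. In the WT columns alone it found 72 rows and in the d1 columns alone 63, counts added after the values were seen. The median genotype and stage differences kept their sign under each alternative tried. The count of genes higher in d1 by at least 1 at stage 7 was 5 with a pseudocount of 0.1, and the count at stage 4 was 0 without the pair on chromosome 10, also added later. Over stages 4 and 7, the fit called 90 genes higher and 97 lower in d1, 22 and 45 after median scaling, 0 and 0 with no filter on low values (4724 at an unadjusted p under 0.05, limma) and 452 and 263 at a mean of at least 5 FPKM, a filter added later. Of the 18 genes it called 0 after median scaling and 0 with no filter. Over the 4 stages it called 31 higher and 17 lower, 4 and 3 with no filter, and 228 and 87 at a mean of at least 5 FPKM. Without stage 1, 2, 4 or 7 it called 5, 4, 4 and 4 higher and 0, 1, 0 and 1 lower. Of the 18, it called 0 under each of these alternatives and the others tried, with 5 of the 18 tested at a mean of at least 5 FPKM and all 18 otherwise. In that fit OS05G0554400 turned to 0.03 with a pseudocount of 0.1 and 0.04 without stage 4, OS08G0475500 to -0.25 with that pseudocount and -0.24 without stage 7, and OS12G0204500 to -0.05 without stage 1 and -0.01 without stage 7. The cause was not tested. Values near 1 FPKM have unknown depth, so small early differences cannot be read.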
